A study of Mus musculus with 30 samples.

Results

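The 9 matrix genes described here were followed over 15 RNA extracts of mammary carcinomas from mice with a Myc transgene: the glycoprotein genes Fn1, Tnc, Postn, Sparc, Thbs2 and Fbn1 and the proteoglycan genes Dcn, Bgn and Lum. They were taken by symbol from the array annotation, using all probes assigned to 1 gene symbol. Of these 9 genes, 8 had such a probe, among 15096 genes with one on the array, and Fbn1 had none, so it is not analysed here. The 8 genes were read by 10 probes. Of these, 8 probes, for 7 genes, were measured in every extract, and on no fewer than 24 of the 30 arrays, and were tested; the Lum probe and a second Tnc probe fell short and are only described.

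Each extract was hybridised on 2 two-colour arrays against 1 reference RNA common to all arrays, once in each channel. The labels give neither the make-up of the reference, the promoter of the Myc transgene, nor the strain, age or treatment of the mice. They do not say which extracts share an animal either, and the p-values below therefore cover the scatter among the extracts at hand, part of which may be technical. Extracts are named by code without the shared prefix CA02-: 579-A, 579-B, 579-D, 579-E and 579-F share the number 579, 546-A and 546-B the number 546, and 540-B, 547-A, 548-A, 550-A, 561-B, 567-B, 595-A and 597-B stand alone. The labels place 550-A and 561-B under tumour progression, 12 extracts under the transition from epithelium to mesenchyme, and 1 array of 595-A under each.

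Values are log2 ratios of extract and reference, averaged over the arrays of an extract. The labels do not say which channel was divided by which. The ratio was therefore turned so that all arrays ran the same way, and values are given by side. Positive values lay on the side of Myc, which stood at 3.16 ± 0.11 (SE) in 15 of 15 extracts; this is likely the side on which extract exceeded reference, since the carcinomas carry a Myc transgene. The basis is not proof, and higher and lower below mean toward and away from the Myc side. The arrays held from 13434 to 21991 measured probes. All 8 epithelial markers tested lay on the Myc side, which goes with the labelled tissue under that direction. The placement was not particular to epithelium, since all 5 endothelial markers tested and 33.5% of all 9919 genes tested passed on that side.

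The extracellular matrix around a carcinoma is made of collagen fibres, adhesive and matricellular glycoproteins and proteoglycans, and most of it is secreted by fibroblasts, with contributions from the tumour cells. Fibronectin (Fn1) forms fibrils that cells hold through integrins and is a marker gene of the transition from epithelial to mesenchymal cells. Matricellular proteins such as tenascin C (Tnc), periostin (Postn), osteonectin (Sparc) and thrombospondin 2 (Thbs2) tune adhesion and collagen assembly, and the small leucine-rich proteoglycans decorin (Dcn), lumican (Lum) and biglycan (Bgn) coat collagen fibrils and shape their assembly.

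Sparc, Thbs2 and Bgn rose and fell together most closely over the extracts, as described further on, and their promoters are shown for that reason. The sequences are from RefSeq on build GRCm38.p6, cover 250 bases before to 50 after the annotated start, run 5′ to 3′ on the gene's strand, and carry in capitals the matches to 6 short motifs on either strand.
Sparc, chr11:55420031-55420330, minus strand: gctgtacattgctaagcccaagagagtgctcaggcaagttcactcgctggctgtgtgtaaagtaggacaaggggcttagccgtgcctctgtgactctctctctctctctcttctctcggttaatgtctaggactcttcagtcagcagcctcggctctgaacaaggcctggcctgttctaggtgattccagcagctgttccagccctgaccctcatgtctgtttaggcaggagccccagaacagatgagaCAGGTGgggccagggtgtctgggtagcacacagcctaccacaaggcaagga
Thbs2, chr17:14694213-14694512, minus strand: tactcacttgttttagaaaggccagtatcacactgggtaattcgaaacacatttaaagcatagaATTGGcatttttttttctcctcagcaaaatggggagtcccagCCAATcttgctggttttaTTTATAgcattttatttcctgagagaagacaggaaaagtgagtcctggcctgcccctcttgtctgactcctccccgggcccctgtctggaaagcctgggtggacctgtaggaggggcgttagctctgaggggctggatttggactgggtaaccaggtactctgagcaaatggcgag
Bgn, chrX:73483351-73483650, plus strand: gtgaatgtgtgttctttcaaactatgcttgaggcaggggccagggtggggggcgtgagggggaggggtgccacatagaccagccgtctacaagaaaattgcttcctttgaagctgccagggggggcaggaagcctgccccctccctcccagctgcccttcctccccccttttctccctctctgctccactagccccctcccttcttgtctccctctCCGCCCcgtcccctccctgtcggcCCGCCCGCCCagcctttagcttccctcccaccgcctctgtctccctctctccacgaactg

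The 3 windows shared none of the 6 motifs. Sparc held 1 match to CACCTG, the E-box letters that Zeb and Snail repressors bind, found in 20.2% of 32851 promoters of this length. Thbs2 held 1 match to the TATA box letters TATAAA (13.6% of promoters) and 2 to the CCAAT box (37.4%). Bgn held 3 matches to the Sp1 GC box letters GGGCGG (35.7%), of which 2 overlap. The Myc and Max E-box CACGTG (7.15% of promoters) and the AP-1 letters TGANTCA (7.81%) had no match in these 3 windows. A match is a description of letters only.

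The comparison with the reference asked on which side of it each matrix gene lay. The 5 genes Fn1, Dcn, Bgn, Thbs2 and Sparc, lay on the side opposite to Myc, Postn lay on the Myc side, and Tnc failed the test. By probe, 7 of 8 passed limma's test at an adjusted p of 0.05, where 47.2% of all 12888 probes tested passed, and 6 of the 8 passed on the opposite side, where 16.9% of all probes did. The median over the 7 genes was -1.08, against 0.17 over all 9919 genes tested. These tests take no account of any scatter of the reference, a single RNA.

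Fn1 was read by 2 probes. On probe 305 the lowest extract was 579-E at -2.50, the median was -1.70 and the highest was 550-A at -0.02, so no extract reached the Myc side. The mean was -1.51 ± 0.19 (SE, n = 15 extracts), 2.85-fold to the opposite side (limma adjusted p = 4.505e-06). On probe 596 the lowest was 579-D at -5.68, the median was -3.28 and the highest was 550-A at 1.06, the single extract on the Myc side. The mean was -2.68 ± 0.41, 6.40-fold to the opposite side (limma adjusted p = 4.25e-05).

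Among the matricellular genes, Postn, whose product periostin binds integrins and promotes collagen crosslinking, ran the other way. Postn lay lowest in 579-D at -0.55, had a median of 2.35, and was highest in 546-A at 5.72. It was on the Myc side in 14 of 15 extracts, with a mean of 2.18 ± 0.35 (4.53-fold, limma adjusted p = 5.85e-05). The Postn probe carried a large channel difference. The array with the extract in channel 1 minus that with it in channel 2 came to a mean of -1.23. A constant offset cancels in the mean of both arrays, but the difference varied between extracts. In 579-F the arrays stood at -0.65 in channel 1 and 3.43 in channel 2, and in 561-B at 2.92 and 2.50. The paired arrays also lay on opposite sides in 579-D and 595-A.

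Sparc encodes a calcium-binding protein that handles collagen outside the cell. It was lowest in 579-D at -2.73, had a median of -1.26 and was highest in 546-A at 0.93. In 12 of the 15 extracts Sparc lay on the opposite side, and the mean was -1.06 ± 0.26 (2.08-fold, limma adjusted p = 0.00257). Thbs2, which encodes an inhibitor of new vessel growth, was lowest in 579-D at -4.05, had a median of -0.97 and was highest in 546-A at 1.69. Its mean of -1.08 ± 0.37 (2.12-fold) passed less clearly than the others (limma adjusted p = 0.0229). That call was lost with 1 mean per code number (adjusted p = 0.0554) and with the arrays that held the extract in channel 1 alone (adjusted p = 0.104).

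Tnc, which encodes an antiadhesive protein of injured and tumour-bearing tissue, did not pass on its tested probe. On probe 4670 it was lowest in 579-D at -3.53, had a median of -0.22 and was highest in 546-A at 4.53, with 6 extracts on the Myc side and 9 on the other. The mean was 0.26 ± 0.54 (limma adjusted p = 0.723), and it changed sign without 546-A (-0.045) or without 550-A (-0.031). The second Tnc probe, 19370, had values on 20 arrays of 12 extracts, and 10 of those values were dim, meaning equal to the log2 of a ratio of small whole numbers. It was lowest in 567-B at -1.72, had a median of -0.11 and was highest in 550-A at 2.89. On both probes 550-A and 540-B lay among the high extracts.

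Both tested proteoglycan genes lay on the opposite side. Dcn, whose product binds collagen and transforming growth factor beta, was lowest in 579-D at -3.86, had a median of -2.11 and was highest in 550-A at -0.22. None of the 15 extracts reached the Myc side, and the mean was -1.96 ± 0.30 (3.90-fold, limma adjusted p = 4.127e-05). Bgn, which encodes the close relative of decorin, was lowest in 579-D at -3.57, had a median of -1.53 and was highest in 546-A at 0.82. Its mean was -1.40 ± 0.30 (2.64-fold, limma adjusted p = 0.000998), with 3 extracts on the Myc side.

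The Lum probe was measured on 16 arrays of 11 extracts, and 11 of those values were dim. It had no value in 540-B, 546-A, 579-A and 579-B. It was lowest in 579-D at -1.96, had a median of 1.59 and was highest in 550-A at 4.81. In 9 of the 11 extracts Lum lay on the Myc side, but no test was made of this probe.

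**Figure D1:**
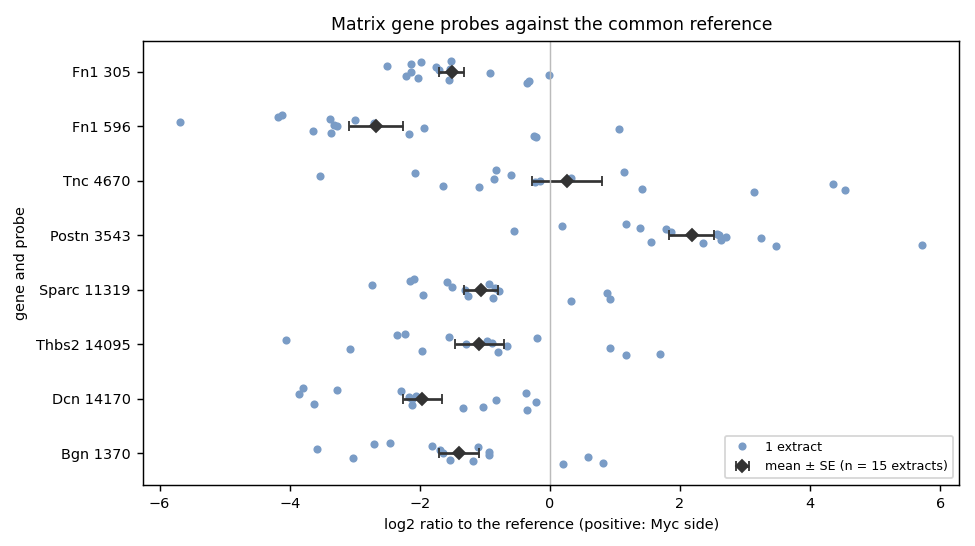
Log2 ratio to the common reference (horizontal axis, positive on the Myc side) of the 8 tested probes of matrix genes (rows, gene and probe number). Each blue point is 1 of 15 extracts, and diamonds with bars are the mean ± SE. Postn lies on the Myc side at 2.18, Tnc straddles 0, and the other 6 probes have means between -2.68 and -1.06.

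Extracts were next compared with each other, to ask whether the matrix genes differed between carcinoma extracts by more than the paired arrays of 1 extract did. All 8 tested probes passed limma's F-test at an adjusted p of 0.05, where 6.73% of all 12888 probes did. The test's error is the difference between paired arrays, so it is a technical one. Tnc had the widest range, with 268-fold between 546-A and 579-D (SD over extracts 2.30, adjusted p = 6.26e-06). Of its 30 values 5 were dim, among them 579-D in channel 2 at -2.81, against -4.26 in channel 1. With dim values as missing Tnc still passed (adjusted p = 1.24e-06). Fn1 followed on probe 596 with 107-fold between 550-A and 579-D (SD 1.75, adjusted p = 1.95e-06).

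The ranges of the other probes were smaller but passed as well. Postn ranged over 77.4-fold (adjusted p = 0.00524), Thbs2 over 53.5-fold (0.00128) and Bgn over 21.0-fold (5.14e-06). Sparc ranged over 12.7-fold (limma adjusted p = 1.40e-05), Dcn over 12.5-fold (0.0114) and Fn1 on probe 305 over 5.57-fold (0.00738). The SD over extracts of Bgn was 1.27 and that of Sparc 1.08, against 0.27 and 0.24 between their paired arrays. The call for Postn was lost without 546-A (adjusted p = 0.071) and in a fit with no dye term (0.152), and that for Fn1 probe 305 after array medians were subtracted (0.0645).

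The 3 extracts 540-B, 546-A and 550-A held the high ends. Of the 7 genes tested, on their main probes, 540-B and 550-A were among the 3 highest extracts for 7 and 546-A for 6. Over all genes tested, 540-B was among the 3 highest for 14.2%, 550-A for 12.6% and 546-A for 39.2%. The mean over the 7 genes was 1.72 in 546-A, 1.39 in 550-A and 1.09 in 540-B, and the next extracts were 561-B and 546-B at -0.23 and -0.24. So 546-A and 546-B, which share a number, lay far apart. The arrays of 546-A held 14643 and 16089 measured probes, of which 7100 and 10912 were dim. Over all arrays 33.62% of the measured values were dim.

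Sparc shows the pattern in single extracts. It stood at 0.93 in 546-A, 0.87 in 550-A and 0.32 in 540-B, and the next extract, 561-B, stood at -0.78. Bgn stood at 0.82, 0.59 and 0.21 in the same 3 extracts, and the next, 579-A, at -0.93. Thbs2 stood at 1.69 in 546-A, 0.93 in 550-A and 1.17 in 540-B, and the next, 579-E, at -0.20. The arrays of 546-A were far apart for Thbs2 too, at 2.90 in channel 1 and 0.485, a dim value, in channel 2. In these 3 genes the 3 extracts were the only ones on the Myc side.

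Tnc and Fn1 gave the same 3 extracts. Tnc stood at 4.53 in 546-A, 4.35 in 550-A and 3.13 in 540-B, and the next, 546-B, stood at 1.41. Fn1 on probe 596 stood at 1.06 in 550-A, -0.22 in 540-B and -0.25 in 546-A, and the next, 561-B, stood at -1.93. Dcn was the exception in 546-A, where it ranked 6 at -1.34. The arrays behind that value were far apart, at 0.13 with the extract in channel 1 and -2.81 with it in channel 2. The value of -2.81 was dim, the only dim value of the Dcn probe, so the exception rests on it.

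At the other end, 579-D was the lowest extract for 6 of the 7 genes, where it was the lowest for 14.6% of all genes tested. Its mean over the 7 genes was -2.87, and that of the next lowest extract, 548-A, was -1.84. Fn1 probe 305 was the exception: 579-D ranked 9 there at -1.75, although it was the lowest extract on Fn1 probe 596. The annotation does not say which stretch of the Fn1 transcript each probe reads.

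**Figure D2:**
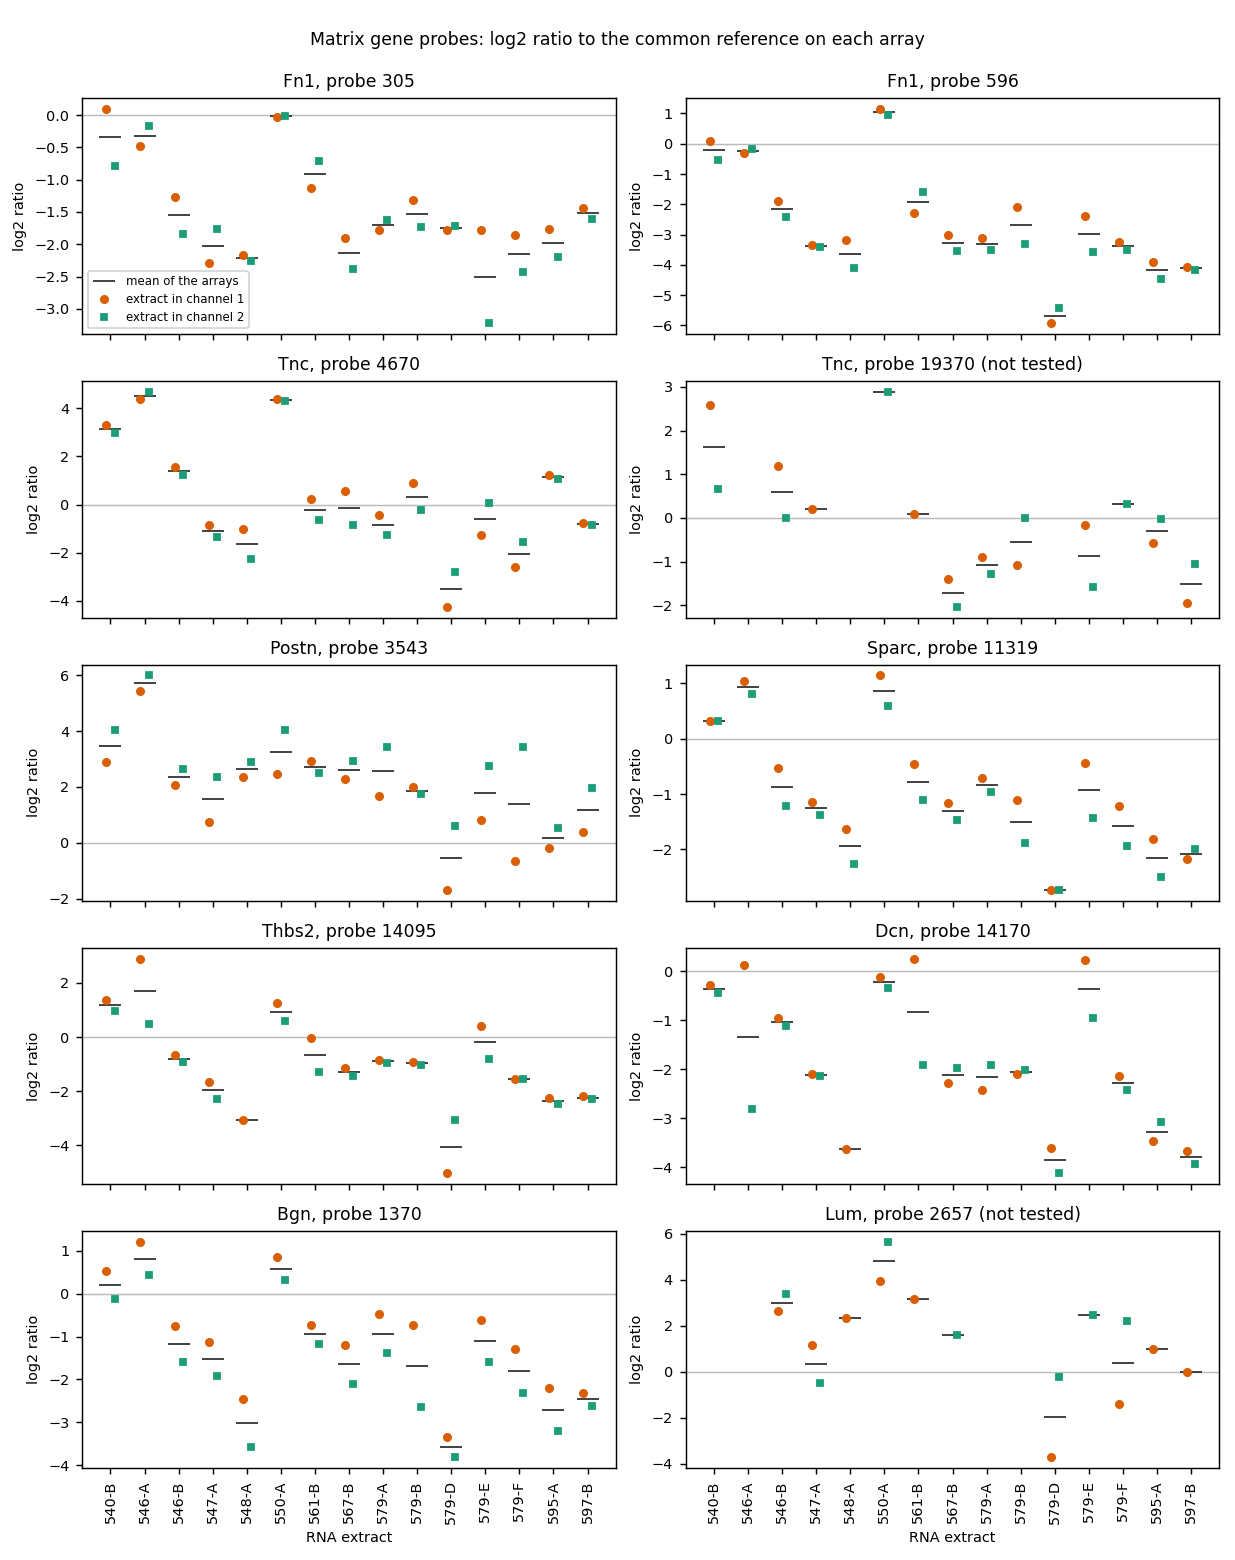
Log2 ratio to the reference (vertical axes, a scale for each panel) on each array for the 10 probes of matrix genes, over the 15 extracts (horizontal axes). Orange circles hold the extract in channel 1, green squares in channel 2, and dashes are the mean; a missing marker is an array with no value. Extracts 540-B, 546-A and 550-A stand high in most panels and 579-D low, and the Postn panel shows the offset between channels.

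The paired arrays gave like values for most probes. Their correlation over extracts was 0.957 for Bgn, 0.952 for Fn1 probe 596, 0.951 for Sparc, 0.929 for Tnc and 0.918 for Thbs2. It was 0.801 for Fn1 probe 305, 0.769 for Postn and 0.740 for Dcn. These values describe arrays that share the same RNA and carry no test.

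The 2 Fn1 probes had means on the same side of the reference, but differed in size and in the order of extracts. Lowest on probe 305, 579-E ranked 7 on probe 596, and 579-D, lowest on probe 596, ranked 9 on probe 305. Over 15 extracts the probes correlated at Pearson r = 0.826 (permutation p = 0.00036) and Spearman rho = 0.621 (permutation p = 0.016). Pearson r was 0.641 without 550-A and 546-A, the extracts farthest from the median of probe 305. Probe 305 ranged over 2.48 log2 units and probe 596 over 6.74. Only 1 such relation between probes of a gene was tested, since the second Tnc probe had too few values.

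**Figure D3:**
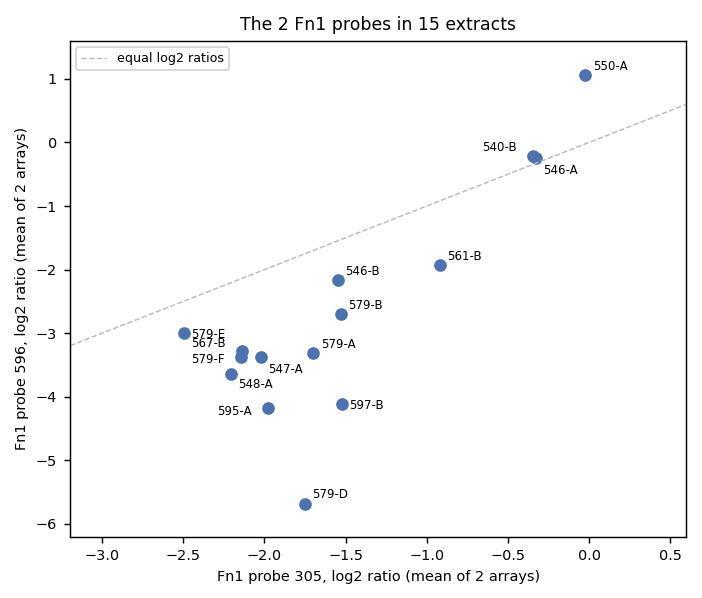
Log2 ratio of Fn1 probe 596 (vertical axis) against that of Fn1 probe 305 (horizontal axis) in the 15 extracts, each point the mean of 2 arrays, with a dashed line where both would be equal. Extract 550-A is highest on both, and 579-D is lowest on probe 596 at -5.68 but stands at -1.75 on probe 305.

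The matrix genes were then compared in pairs, to see which of them rose and fell together over extracts. Fn1 was represented by probe 305, the first in text order of its 2 probes with values on all 30 arrays. All 21 pairs of the 7 genes had a positive r, and 20 passed a two-sided permutation test with p-values adjusted over the 21 pairs (19 by Spearman's rho). The share of all gene pairs that would pass was not computed, so these counts do not set the matrix genes apart. Pearson r had a median of 0.827. Without the 2 extracts farthest from the median of the first gene of a pair, r ranged from 0.362 to 0.979.

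Sparc, Thbs2 and Bgn, whose promoters are printed above, formed the closest group. Sparc and Bgn correlated at r = 0.985 (rho = 0.982, permutation p = 1e-05, adjusted 7e-05), Thbs2 and Bgn at r = 0.976 (rho = 0.946, permutation p = 1e-05, adjusted 7e-05), and Sparc and Thbs2 at r = 0.953 (rho = 0.936, permutation p = 1e-05, adjusted 7e-05). The p of 1e-05 is the smallest that 100000 resamples can give. Of 9912 other genes tested, none correlated with Sparc or with Thbs2 more closely than Bgn did. Dcn joined them at r = 0.862 with Thbs2, 0.856 with Bgn and 0.827 with Sparc. The weakest pair was Fn1 and Dcn at r = 0.513 (rho = 0.439, adjusted permutation p = 0.0508). Ranked by r among the 9912 other genes, Dcn took place 773 for Fn1, 677 for Postn and 538 for Tnc.

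Without 540-B, 546-A and 550-A, a choice made after seeing the data that also narrows the range, 8 of the 21 pairs passed over the other 12 extracts. They were the 6 pairs among Sparc, Thbs2, Dcn and Bgn, with r between 0.885 and 0.974, and Postn with Sparc (r = 0.79) and with Bgn (r = 0.688). By Spearman's rho 7 pairs passed, Postn with Bgn being the one that failed (rho = 0.545, adjusted permutation p = 0.187). The 6 pairs of Fn1 probe 305 fell to r between 0.085 and 0.221, so their pooled r rests on those 3 extracts. Over the 12, Fn1 probe 305 no longer differed between extracts (SD 0.42, limma's F-test, adjusted p = 0.433), which leaves little spread to correlate. With Fn1 probe 596 in its place, also chosen after seeing the data, Fn1 correlated with the other 6 genes at r between 0.812 and 0.959 over all extracts, and at r between 0.637 and 0.886 over the 12. Then 21 of 21 pairs passed over all extracts and 15 over the 12 (21 and 12 by Spearman's rho).

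**Figure D4:**
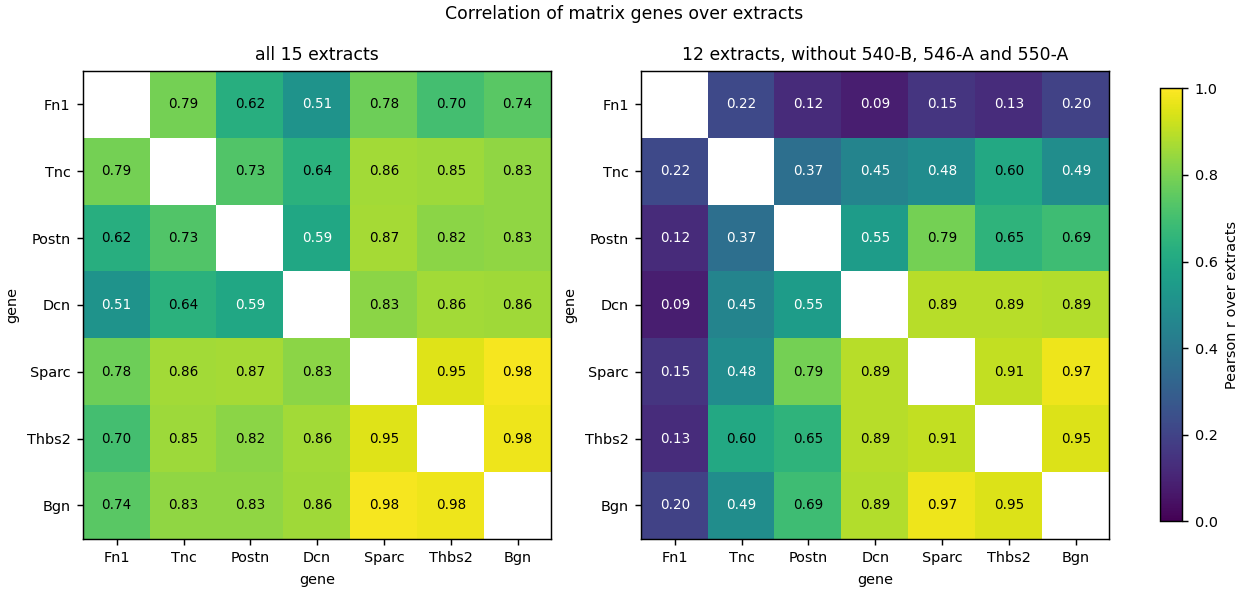
Pearson r over extracts for each pair of the 7 tested matrix genes (rows and columns, main probes), over all 15 extracts at left and over 12 at right. Sparc, Thbs2, Bgn and Dcn keep r of 0.885 or more at right, where the row of Fn1 (probe 305) lies at 0.221 or less.

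The genes that most resembled each matrix gene over the 15 extracts were taken by Pearson r, as a description that shares the array level. Sparc was nearest to Vim, which encodes the mesenchymal filament vimentin (r = 0.982), Igfbp7 (0.977) and the fibril collagen gene Col5a2 (0.971). Thbs2 was nearest to Fstl1 (0.97), Timp1, an inhibitor of matrix metalloproteinases (0.962), and Col5a2 (0.955). Bgn was nearest to Fstl1 (0.973), Col5a2 (0.967) and Vim (0.963). So these 3 matrix genes shared Col5a2 among their nearest genes.

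The others had different neighbours. Postn was nearest to the collagen I genes Col1a1 (0.93) and Col1a2 (0.914), with the leukocyte receptor gene Lilrb4a (0.915) between them. Dcn was nearest to Col3a1, which encodes collagen III (0.872), Ltbp2 (0.861) and S100a6 (0.86). Tnc was nearest to Fbln2, which encodes fibulin 2 (0.93), the calponin gene Cnn2 (0.925) and the kinase gene Sgk1 (0.924). Fn1 probe 305 was nearest to Bmp1, whose protease trims procollagens (0.917), the integrin gene Itga3 and Nkd2 (0.881 each).

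Extracts of number 579 were set against those of the other numbers, 579 being the number with the most extracts. All 8 tested probes were lower in 579, and none passed limma's test, where 0% of the 12888 probes did (0 called, 460 at an unadjusted p under 0.05). Lower values were also found for 56.9% of all probes. The largest difference was that of Tnc. Tnc stood in 579 at a mean of -1.34 ± 1.49 (SD, n = 5), between -3.53 and 0.33, against 1.06 ± 2.26 (SD, n = 10), between -1.64 and 4.53, in the other numbers. The groups overlapped, and the difference was -2.41 ± 1.02 (SE, limma unadjusted p = 0.0305, adjusted p = 0.9999).

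Fn1 probe 596 differed by -1.41 ± 0.83 between 579 and the other numbers, Postn by -1.16 ± 0.70 and Sparc by -0.69 ± 0.54. Without 579-D alone these differences were -0.89, -0.67 and -0.38, that of Thbs2 was -0.042 against -0.67 with it, and that of Bgn -0.197 against -0.64 with it. The smallest difference was that of Dcn at -0.28 ± 0.65, which turned to 0.152 without 579-D. Without 540-B, 546-A and 550-A, none of which carries the number 579, the differences of Thbs2 (0.237), Dcn (0.251) and Bgn (0.105) were positive. The labels do not say what the number marks.

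The labels name tumour progression for 550-A and 561-B, which were set against the 12 extracts described under transition. All 8 tested probes were higher under progression, where 53.1% of all probes were. None passed limma's test; 1 of the 12888 probes did (0.00776%), and 525 had an unadjusted p under 0.05. Fn1 probe 305 stood at -0.02 in 550-A and -0.92 in 561-B, against -2.50 to -0.33 with a median of -1.72 in the transition extracts. The difference was 1.17 ± 0.50 (SE, limma unadjusted p = 0.0332, adjusted p = 1.0). Fn1 probe 596 stood at 1.06 in 550-A and -1.93 in 561-B, against -5.68 to -0.22 with a median of -3.30 in the transition extracts (difference 2.49 ± 1.09, limma unadjusted p = 0.0368, adjusted p = 1.0).

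The ranges overlapped for both Fn1 probes, because 540-B and 546-A, described under transition, lay above 561-B. Without 550-A the difference of Fn1 probe 305 was 0.73 and that of Fn1 probe 596 was 0.99. Tnc differed by 2.18 ± 1.59 between progression and transition, and this turned to -0.108 without 550-A. With 2 extracts on one side, the labelled descriptions and the single extracts cannot be told apart.

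Other genes of the matrix were read from lists. Of all 9919 genes tested, 33.5% passed toward Myc, 14.8% passed away from it, and 7.21% differed between extracts. Of the fibrillar and fibril-linked collagens that the matrix proteins bind, 11 were tested: 4 lay on the opposite side, led by Col6a1 (-2.15), Col3a1 (-1.73) and Col1a2 (-1.18), 2 on the Myc side, Col2a1 (1.49) and Col12a1 (1.23), and 5 failed the test. Between extracts 6 of the 11 differed. The collagen mean was 2.34 in 546-A, 1.19 in 540-B and 0.95 in 550-A, the 3 highest values, and -2.05 in 579-D, the lowest.

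Receptors for these proteins lay on the opposite side in 8 of 13 genes tested, where 14.8% of all genes did, with 2 toward Myc and 3 that failed the test. Anxa2 (-1.92), the integrin gene Itgav (-1.30) and Cd47, the receptor of thrombospondins (-1.24), lay farthest out, and Itgb3 (0.63) and Tlr2 (0.44) lay on the Myc side. Between extracts 6 of the 13 differed (7.21% of all genes). The integrin beta 1 gene Itgb1, a partner in fibronectin receptors, was lowest in 579-D at -2.43 and highest in 550-A at 0.61.

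Further matricellular and adhesive glycoprotein genes numbered 16, of which 9 lay on the opposite side (14.8% of all genes), 2 lay toward Myc (33.5%) and 5 failed the test; 6 differed between extracts (7.21%). Matn2 (-2.01), Fstl1 (-1.77) and Edil3 (-1.22) lay farthest on the opposite side, and Mgp, which encodes the calcification inhibitor matrix Gla protein, lay on the Myc side at 1.72 with Thbs4 at 0.46. Thbs1, the relative of Thbs2, lay on the opposite side at -0.77. With Fbn1 not analysed, 11 other microfibril and elastic fibre genes were read: 4 lay on the opposite side, led by Fbln2 (-2.34), Emilin1 (-1.44) and Ltbp1 (-1.33), 2 on the Myc side, the elastin gene Eln (0.84) and Ltbp3 (0.42), and 5 did not pass, while 3 differed between extracts.

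Proteoglycan genes other than Dcn and Bgn were read in the same way. Of 4 other small leucine-rich proteoglycan genes tested, Ogn (-2.81) lay on the opposite side and 3 failed the test, and the lowest adjusted p between extracts among the 4 was 0.0628, for Prelp (limma's F-test). Of 14 large, membrane and other proteoglycan genes, 4 lay on the Myc side, led by Prg4 (0.87), Gpc6 (0.68) and the agrin gene Agrn (0.61), 2 on the opposite side, Sdc2 (-2.17) and Gpc1 (-0.61), and 8 did not pass; 2 differed between extracts. The share on the Myc side was 28.6%, near the 33.5% of all genes, and the share on the opposite side 14.3%, near their 14.8%. Of 11 genes that build glycosaminoglycan chains, 3 lay on each side, with Chst14 (-1.25) and Chst11 (0.60) farthest, 5 did not pass and 1 differed between extracts (9.09%, near the 7.21% of all genes).

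Markers of cell types were read beside these results, because in bulk RNA fewer cells of a type and less RNA per cell cannot be told apart. Of 7 fibroblast markers tested, 4 lay on the opposite side, led by Pcolce (-2.37), 3 did not pass, and 4 differed between extracts. Their mean was 0.69 in 550-A, 0.66 in 540-B and 0.50 in 546-A, -0.37 or less in every other extract, and lowest in 579-D at -2.54. Of the 7 markers, 3 are collagen genes of the list above. Over the other 4 (Pdgfrb, Thy1, Fap and Pcolce) the mean was 0.47 in 550-A and 0.41 in 540-B, the 2 highest values, but -0.61 in 546-A, which ranked 8, and -1.66 in 579-D, the lowest. In 546-A Col1a1 stood at 2.87, while Fap stood at -2.55, Pcolce at -0.91, Pdgfrb at -0.16 and Thy1 at 1.17. The part of these cells in the result was not tested.

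Smooth muscle and pericyte markers had the same 3 highest extracts as the matrix genes, with means of 1.46 in 546-A, 0.20 in 540-B and 0.16 in 550-A against -0.04 in the next, 579-A, and the same lowest one, 579-D at -1.77. By gene, Des (3.93) and Tagln (0.89) were highest in 546-A, Acta2 (-0.32) in 550-A, Rgs5 (2.66) in 595-A and Myh11 (0.64) in 579-A. Of the 5 tested, 2 lay on the opposite side, 1 lay toward Myc and 2 failed the test, and 1 differed between extracts. The 8 epithelial markers passed on the Myc side, with means between 1.56 in 579-D and 3.38 in 546-A, and 2.40 in 550-A and 2.53 in 540-B; 3 of them differed between extracts. The 5 endothelial markers passed on the Myc side, with means between 0.38 in 548-A and 2.02 in 540-B, and their lowest adjusted p between extracts was 0.262, for Cdh5 (limma's F-test). Of 5 macrophage markers 3 lay toward Myc, 1 lay away from it and 1 failed the test, and of 3 adipocyte markers 1 lay toward Myc and 2 failed the test. The part of these cells in the result was not tested.

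**Figure D5:**
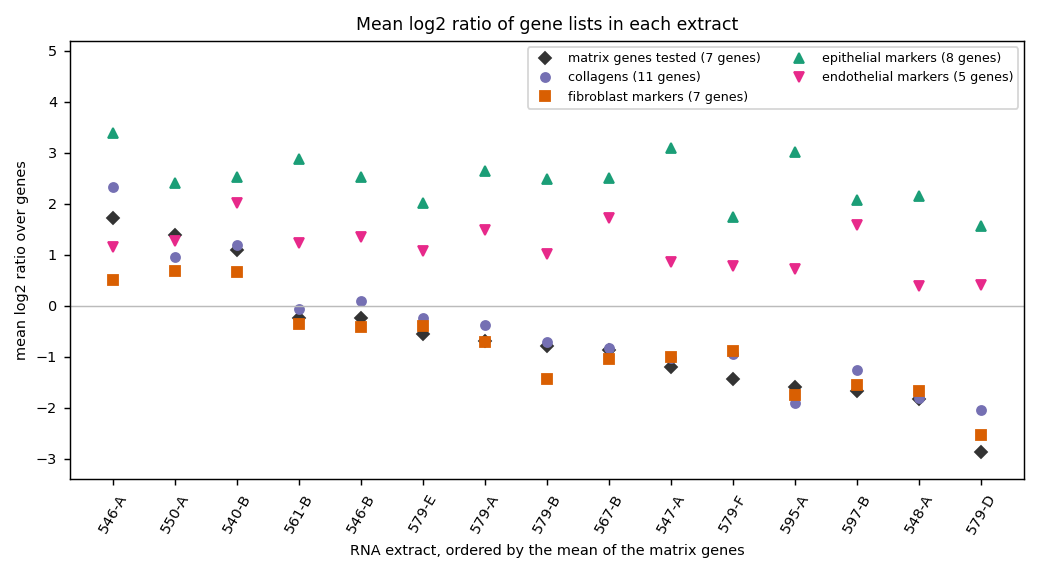
Mean log2 ratio over the genes of a list (vertical axis) in each of the 15 extracts, ordered by the mean of the 7 matrix genes (horizontal axis). Collagens and fibroblast markers are positive in 546-A, 550-A and 540-B with the matrix genes and lowest in 579-D, while epithelial markers lie between 1.56 and 3.38 throughout. Of the 7 fibroblast markers, 3 are also among the collagens, and without these 3 the fibroblast mean in 546-A was -0.61. In that extract Fap was at its lowest (-2.55), while Thy1 and Pcolce were at their highest.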

How the data were processed

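RNA of 15 carcinoma extracts was measured on 30 two-colour arrays against a common reference. The deposited table holds a log2 ratio per array for each of 22800 probes, a scale read from the values; the authors' background correction, normalization, scanner and genome build are not stated in the labels or the table. The value 16.61 (8839 cells) was taken as missing with 95268 blanks, leaving 84.78% of cells. Of the measured values, 33.62% were dim, matching at 3 decimals the log2 of one whole number over another, neither above 20. No channel intensities were used, so signal over background is unknown, and the number of arrays limits the precision.

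As deposited, the paired arrays of an extract correlated over probes between -0.472 and 0.0385. Between extracts the median correlation was 0.557 with extracts in channel 1, 0.572 in channel 2 and -0.172 in opposite channels, so arrays with the extract in channel 2 were turned. Scale is clear, array medians differ, and the direction of the ratio is unknown.

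Probe names came from the platform annotation: 16874 probes had 1 symbol, 134 several and 5792 none here, and 16196 of the first were found in RefSeq (GRCm38.p6). Where a gene had several tested probes, the one with most values stood for it, ties going by probe number as text. Probes with values on at least 24 arrays and in every extract were kept (12888, for 9919 genes). Extract means were tested with limma 3.58.1 (lmFit, eBayes) in R 4.3.3, and differences between extracts with its F-test on single arrays with a dye term, after tests on simulated data. P-values were adjusted by Benjamini-Hochberg over all kept probes. Correlations used two-sided permutation tests with 100000 resamples.

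The text names every probe of the matrix genes, up to 3 genes farthest from 0 on each side of a list, and the 3 genes most like each matrix gene; Thbs1 and Itgb1 were named after their values were seen. Genes and lists were chosen with earlier results of these data known. Alternatives changed the array level, probe filter, dim values, orientation, dye term, code number and extracts. Promoters were found for 6 of the 9 genes, with 8 entries.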

Additional observations from a re-analysis of the deposited data

Results flagged for a closer look

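Fn1 probe 596 stood at -5.682 in 579-D, far below the other 4 extracts of number 579, of which the nearest stood at -3.38. The gap was 0.771 of the group's range, above Dixon's critical value of 0.71 for 5 values. Both arrays of 579-D read low on this probe, at -5.94 with the extract in channel 1 and -5.43 with it in channel 2, while Fn1 probe 305 stood at -1.75 in the same extract. In all, 16 groups of values were examined this way, and chance gives such a value in about 1 in 20 groups.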

How the results depend on the processing

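Against the reference, between 5 and 7 of the tested probes passed under every alternative tried, 5 where probes needed values on all 30 arrays, which left 6 to test; Tnc stood at -0.675 without 540-B, 546-A and 550-A, and between -0.045 (without 546-A) and 0.531 (without 579-D) leaving out each extract in turn, with -0.031 without 550-A. Subtracting array medians moved the median of all genes tested to 0.035, against 0.166 as deposited, and 7 of 8 probes still passed. Between extracts, 6 to 8 probes passed: the call for Postn was lost with no dye term (adjusted p = 0.152), without 546-A (0.071), without 546-A and 548-A (0.0914) and without 540-B, 546-A and 550-A (0.242), and that for Fn1 probe 305 after array medians were subtracted (0.0645) and without those 3 extracts (0.433). Of all probes, 867 differed between extracts, 393 with no dye term, 472 without 546-A and 548-A, 329 without the 3 extracts, and 568 to 1172 leaving out each extract in turn. Of all probes against the reference, 6088 of 12888 passed in the main test. With values required on all arrays 4047 of 6801 passed, and 3346 of 5268 with dim values as missing. For 579 against the other numbers, no tested probe of a matrix gene passed under any alternative; Dcn stood between -0.723 and 0.152 leaving out each extract in turn, the highest without 579-D, and without the 3 extracts Thbs2 stood at 0.237, Dcn at 0.251 and Bgn at 0.105. Under progression none passed either, Tnc stood between -0.108 (without 550-A) and 4.463 (without 561-B) leaving out each extract in turn, and the count over all probes was 1, between 0 and 4 leaving out each extract in turn, and 8 without the 3 extracts. By Pearson r, between 17 and 21 of the 21 pairs passed, except 8 without the 3 extracts and 15 when Fn1 probe 596 was also used. By Spearman's rho the count was 19, and 15 with array medians subtracted, 13 without 546-A and 548-A and 14 in channel 2 alone. It was 7 without the 3 extracts and 12 when Fn1 probe 596 was also used. The leave-out of the 3 extracts and the use of this probe were chosen after seeing the data. Of the 21 genes most like a matrix gene, 19 kept a place among the 3 nearest after array medians were subtracted. The cause of these changes was not tested. The dim values limit Lum and the second Tnc probe most. No paired analysis was possible because the labels give no replicate numbers that the groups share.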

Other observations

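Several genes of the lists stood at an end of their range in 546-A, and they were named after their values were seen. Many values of this extract were dim, 7100 of 14643 on the channel 1 array and 10912 of 16089 on the channel 2 array. The cartilage collagen gene Col2a1 stood at 6.13 in 546-A, Col12a1 at 5.65, the growth factor receptor gene Met at 4.70 and the muscle filament gene Des at 3.93, each the highest of the 15 extracts. Fap, which encodes a protease of activated fibroblasts, was lowest there at -2.55, unlike the matrix genes. By limma's F-test between extracts, Col12a1 (adjusted p = 6.52e-06) and Met (0.00152) passed. Col2a1 (0.136), Des (0.183) and Fap (0.0745) did not. Over all genes tested, 546-A was the highest extract for 22.9% and the lowest for 10.4%.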
